A study of Helicoverpa armigera with 12 samples.

Results

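Helicoverpa armigera, the cotton bollworm, is a noctuid moth whose larvae feed on many crops. In the study, RNA of whole bodies was sequenced in 12 pools from 3 stages, and the value of every assembled contig in every pool was deposited as FPKM, that is, fragments mapped to a contig, scaled by its length and by the size of the library. Each of the 4 pools of 5th instar larvae held 10 larvae taken on day 1 after ecdysis. The 4 pools of 1st instar larvae held 30 larvae each, taken on the third day after hatching, and the adults, 2 pools of males and 2 of females, were taken on day 1 after eclosion. No strain, genotype or treatment is given for any group. The sexes of the larvae are not given either.

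The comparison made here was among the 4 libraries of 5th instar larvae, with the 4 libraries of 1st instar larvae as the reference. Contigs were taken as members when their mean over the 4 5th instar libraries was at least 5 FPKM, which held for 11213 of 99711 contigs, belonging to 8280 unigenes. They were ranked by the SD of log2(FPKM + 1) over the 4 libraries. A contig with an SD of at least 1, a typical deviation of at least 1 doubling, is called widely spread below. At the threshold, c62177_g4_i1, which has no description, was just inside with 5.53, 1.96, 7.01 and 5.50 FPKM in replicates 1 to 4, and c56516_g2_i2, a hypothetical protein, was just outside with 6.39, 4.66, 7.83 and 1.11 FPKM. Functions are those of the best nr match given with each contig, and 2313 members (20.6%) had none.

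Larvae grow by moulting. At each moult the epidermis lays down a new cuticle of chitin and cuticular proteins under the control of ecdysone, while juvenile hormone keeps the moult larval. The midgut secretes the proteases and lipases that digest the food, and the fat body makes the storage proteins and lipid carriers of the haemolymph. The testes of moths begin to form sperm in larval life, so that transcripts of the sperm tail can be found in larvae.

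The 5th instar libraries lay farther apart than the 1st instar libraries. For each library the root mean square deviation from the mean of the other 3 libraries of its stage was taken over 26753 contigs with a mean of at least 1 FPKM over the 8 larval libraries. It was 1.22, 1.13, 0.837 and 0.935 on the log2 scale in 5th instar replicates 1 to 4, and 0.399, 0.404, 0.423 and 0.437 in 1st instar replicates 1 to 4. The ranges did not overlap, and the means were 1.03 ± 0.174 (SD, n = 4) and 0.415 ± 0.0175 (SD, n = 4). The difference was 0.615 (p = 0.0286, two-sided exact permutation test), and no split of the 8 libraries among the 70 possible can give a smaller p. Each distance uses the other 3 libraries of its stage, so a single deviant library raises all 4 distances of that stage. The 4 values of a stage are thus not independent, which the permutation test takes them to be. A pool of 10 larvae also holds fewer individuals than a pool of 30, so stage and pool size cannot be told apart. Whether the pools came from separate rearings is not stated, and p-values measure only the spread between these libraries.

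Over the 11213 members the median SD was 0.629 in the 5th instar and 0.165 in the 1st instar libraries. Widely spread contigs numbered 3221 (28.7%) in the 5th and 155 (1.38%) in the 1st instar, and an SD of at least 2 was reached by 1036 and 10 contigs. The SD was the larger in the 5th instar for 10528 members (93.9%). Since members were chosen by their level in the 5th instar, the 7590 contigs with a mean of at least 5 FPKM in both stages were described too. Their median SD was 0.531 in the 5th and 0.174 in the 1st instar, with 1212 (16%) and 85 widely spread. Level made little difference to the spread, as the median SD was 0.608 for members of 5 to 10 FPKM and 0.650 for the 242 most abundant members. In the middle of the range, the highest of the 4 libraries was 2.60 times the lowest (median over members, FPKM + 1).

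**Figure D1:**
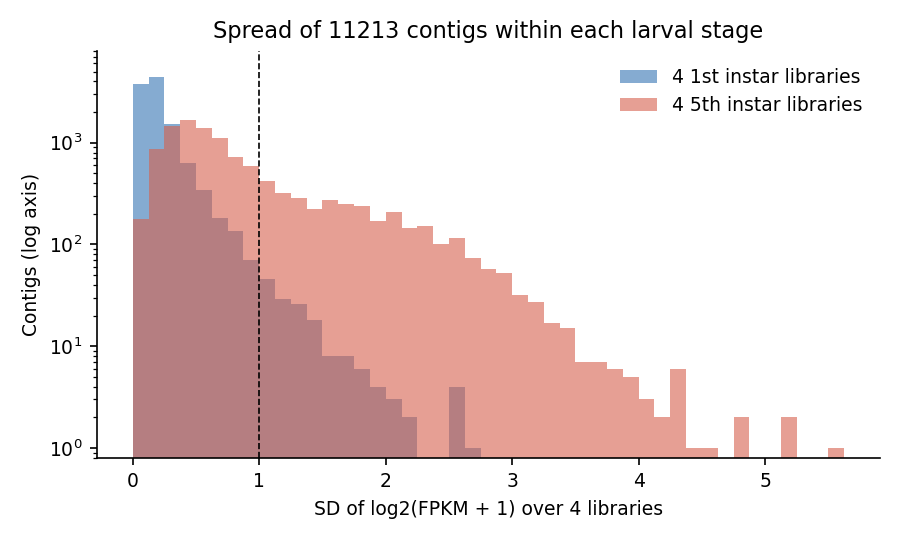
Number of contigs (log axis) by the SD of log2(FPKM + 1) over the 4 libraries of a stage, for the 11213 members; blue bars are the 1st instar, red bars the 5th instar, and the dashed line marks an SD of 1. To the right of the line lie 3221 contigs in the 5th instar and 155 in the 1st.

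The pairs of libraries differed in the same way. Over the members, Pearson's r of log2(FPKM + 1) between 5th instar libraries ran from 0.592 (replicates 1 and 2) to 0.810 (replicates 1 and 3), and between 1st instar libraries from 0.984 to 0.988. These are correlations over contigs of a shared assembly, which are not independent, and they serve as a description. Summed FPKM ran from 1074570 to 1460000 in the 5th instar and from 1326990 to 1509630 in the 1st, and the 10 highest contigs held 9.12% to 16.3% of a 5th instar library. Read depth cannot be had from these values, which are not counts.

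A Levene-type test with limma, on the absolute deviations of each contig from its stage mean, was run over the 26753 contigs. At a Benjamini-Hochberg adjusted p below 0.05, 5333 contigs (19.9%) were wider in the 5th instar and 588 (2.2%) were narrower. Among the members, 2893 (25.8%) were wider and 11 narrower, but the rule for members used the 5th instar values and nothing is read from this share. The test is liberal: on simulated libraries with no difference in spread it gave an unadjusted p under 0.05 more often than it should, which deviations from the stage median hardly did. The count is also fragile, as it was 2913 wider and 212 narrower with the variance trend set on the mean level, and 220 and 44 with deviations from the stage median. It was 1 wider and 0 narrower without any one of 1st instar replicates 1, 2, 3 or 4, where 9888 to 10829 contigs had an unadjusted p under 0.05. Without 5th instar replicate 1, 3 or 4 it was 8357, 9619 and 8780 wider, and without replicate 2 it was 7546. Calls of single contigs from this test are therefore not used below.

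The widely spread contigs were sorted by the largest gap between neighbouring libraries. Replicate 1 lay below the other 3 libraries in 1138 of the 3221 contigs (35.3%), the most frequent of the 14 possible patterns. Replicate 2 lay below the others in 367 and above them in 343, and replicates 1 and 3 lay together above 2 and 4 in 290. The reverse, replicates 2 and 4 above 1 and 3, was seen in 209. Replicate 4 lay alone below in 201 and alone above in 190 contigs, and replicate 1 alone above in 59. These counts describe the 4 libraries and are not tested.

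**Figure D2:**
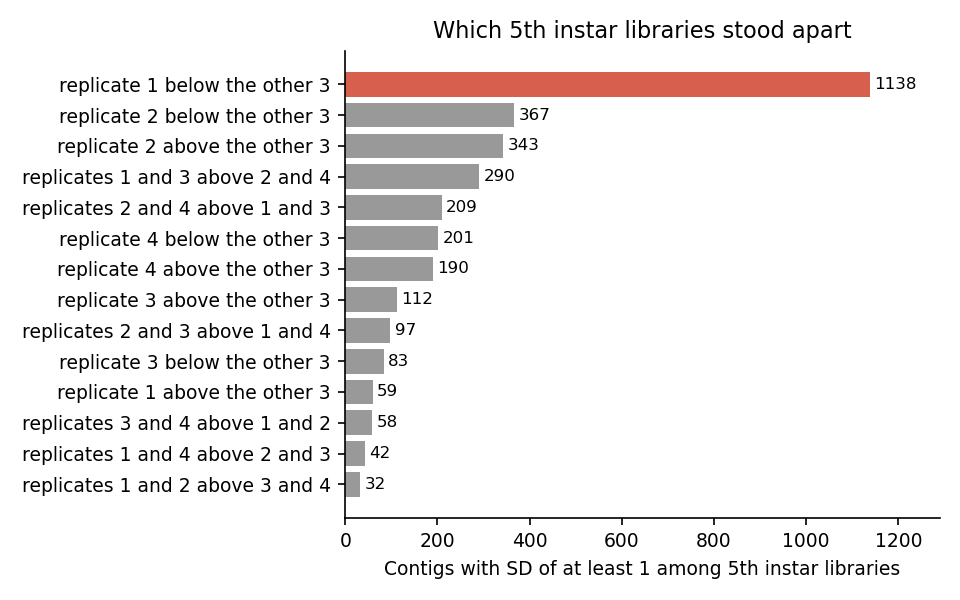
Widely spread contigs (SD of at least 1 among the 4 5th instar libraries) by which libraries lay apart, judged by the largest gap between neighbouring values; bars are numbers of contigs. Replicate 1 below the other 3 held 1138 contigs and the next pattern held 367.

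The contigs low in replicate 1 were nearly silent there. Of the 1138, 987 (86.7%) were below 1 FPKM in replicate 1 and 619 were listed at 0, and their median was 0 in replicate 1 against 18.7, 10.9 and 16.5 FPKM in replicates 2, 3 and 4. Together they held 0.207% of the FPKM of replicate 1, and 5.02%, 2.55% and 4.19% of the other 3 libraries. They held 34.2% of the squared deviation of all members. Over replicates 2 to 4 alone, their median SD was 0.495 and 56 (4.92%) were widely spread, against 0.549 and 2238 of the 11213 members. The set was chosen for its gap between replicate 1 and the rest, which favours a low spread among the others.

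The steepest described contig among them was c66236_g1_i1, with a best match to a rat sequence called rCG23821 and no known role. It stood at 0.724, 2925, 1713 and 2290 FPKM in 5th instar replicates 1 to 4 (SD 5.19) and was listed at 0 in all 1st instar libraries. In the adults it was at 140 and 315 FPKM in the males, and at 0 and 0.095 FPKM in the females. Tubulins, the subunits of microtubules, followed. The beta-tubulin c54722_g2_i1 was listed at 0 in replicate 1 and had 417, 295 and 401 FPKM in replicates 2 to 4. The alpha-tubulin c56081_g2_i1 had 0.102, 124, 120 and 151 FPKM in replicates 1 to 4. Both were listed at 0 in every 1st instar library and had 147 to 239 FPKM in adult males against at most 0.104 FPKM in adult females.

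The beta-tubulin c57367_g2_i1 had the same profile in the larvae, with 0.241, 518, 367 and 501 FPKM, but was below 0.1 FPKM in all 4 adult libraries. The myosin-10-like contig c59085_g1_i1 was alike, with 0.051, 50.5, 23.7 and 42.8 FPKM in the 5th instar and at most 0.047 FPKM in adults. Low values in replicate 1 thus did not always go with high values in adult males. Of the 26 tubulin contigs among the members, 12 were widely spread and 10 of these were low in replicate 1, and without that library 5 were. This list was added after the data were seen. The highest alpha-tubulin of the list, c48797_g1_i1, had 2192, 1018, 2240 and 1905 FPKM and was not.

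Transcripts named for the sperm tail or the testis were the described group with the widest spread after the viral and haemolymph lipoprotein contigs. Of the 24 members, 20 (83.3%) were widely spread, against 28.7% of all members, with a median SD of 1.76 against 0.629. Replicate 1 was the lowest library for 22 of the 24, and 13 were listed at 0 there. Without replicate 1, 1 of the 24 was widely spread. Summed over the list, the FPKM was 23.9 in replicate 1 and 502, 281 and 439 in replicates 2, 3 and 4. It was 20.6 to 22.9 in the 1st instar libraries, 231 and 293 in adult males, and 31.1 and 40.2 in adult females. Replicate 1 thus lay near the 1st instar libraries and below both sexes of adults, and the other 3 lay near or above the males.

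Tektin-2, a filament protein of the sperm tail, is an example (c59641_g1_i1). It had 0.076, 55.8, 27.2 and 44.9 FPKM in 5th instar replicates 1 to 4, and 26.1 and 28.0 FPKM in adult males against 0 and 0.045 FPKM in females. A testis-specific serine/threonine kinase (c37510_g1_i1) had 0.089, 54.8, 33.7 and 48.6 FPKM, with 43.7 and 50.5 FPKM in males and at most 0.078 FPKM in females. None of the 12 members named for the germ line and ovary, from 5 unigenes, was widely spread, and their median SD was 0.35. These names do not single out the ovary. The highest, a chorion b-ZIP factor (c59177_g1_i3), had 26.6 and 16.7 FPKM in adult males against 19.2 and 15.5 FPKM in females. A tudor nuclease (c59343_g1_i1) had 23.0 and 26.3 FPKM in males against 86.9 and 56.3 FPKM in females. For whole-body pools, fewer cells of a type and less RNA per cell cannot be told apart.

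Mitochondrial and chaperone contigs had members with the same profile. Of the 121 contigs of oxidative phosphorylation, 43 (35.5%) were widely spread, against 28.7% of all members. The median SD of the 121 was 0.589, below the 0.629 of all members. Of the 43, 35 were low in replicate 1, against 1138 of the 3221 widely spread members (35.3%). Without that library 8 of the 121 were widely spread. Cytochrome c oxidase subunit 7A1 (c7946_g1_i1), of the last complex of the respiratory chain, had 0, 172, 73.9 and 144 FPKM. The iron-sulfur subunit of succinate dehydrogenase (c41152_g1_i1) had 0, 98.9, 63.0 and 110 FPKM. Other contigs for cytochrome c oxidase were steady: c36631_g1_i1, subunit III, had 10551, 16322, 14568 and 11752 FPKM and subunit 7C (c54842_g1_i1) had 424, 459, 447 and 444 FPKM. A second contig for subunit 7C, c7586_g1_i1, had 0, 94.9, 56.2 and 68.6 FPKM.

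Enzymes of the mitochondrial matrix were among them, named after their values were seen. Pyruvate carboxylase (c42940_g1_i1), which makes oxaloacetate from pyruvate, had 0, 64.6, 66.6 and 95.4 FPKM. Glutamate dehydrogenase (c60693_g1_i1) had 0.114, 111, 89.5 and 131 FPKM. For both, adult males (17.4 to 37.9 FPKM) lay above adult females (at most 0.201 FPKM). Another matrix enzyme, 2-oxoglutarate dehydrogenase (c57544_g1_i1), had 0.038, 75.4, 62.7 and 80.1 FPKM in the 5th instar. It was at most 0.257 FPKM in every adult library, male or female. Of 49 heat shock protein contigs, 18 (36.7%) were widely spread, against 28.7% of all members, and 11 were without replicate 1. Of the 18, 7 were low in replicate 1, near the share among all widely spread members (1138 of 3221, 35.3%). The chaperone contig c60751_g1_i1 (heat shock protein 70-3) had 0, 45.6, 28.1 and 42.3 FPKM, and the small heat shock protein c53750_g1_i1 had 0.305, 50.3, 25.1 and 36.3 FPKM. By comparison, the highest of the list, c47110_g1_i1, a heat shock protein 70, had 3297, 1985, 2828 and 1856 FPKM.

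A fibroin heavy chain-like contig (c49294_g1_i1), by its name a silk protein, was low in replicate 1 as well, with 0.127, 277, 357 and 368 FPKM. It differed from the contigs above in the 1st instar, where it had 3.85 to 10.6 FPKM. In adults it had 6.68 and 9.48 FPKM in males against 0.318 and 0.051 FPKM in females. All 4 silk protein members were widely spread, but only 2 of them were in the set low in replicate 1. Their sum was 24.4, 354, 515 and 445 FPKM in replicates 1 to 4, and c49294_g1_i1 alone made up most of it in replicates 2 to 4.

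**Figure D3:**
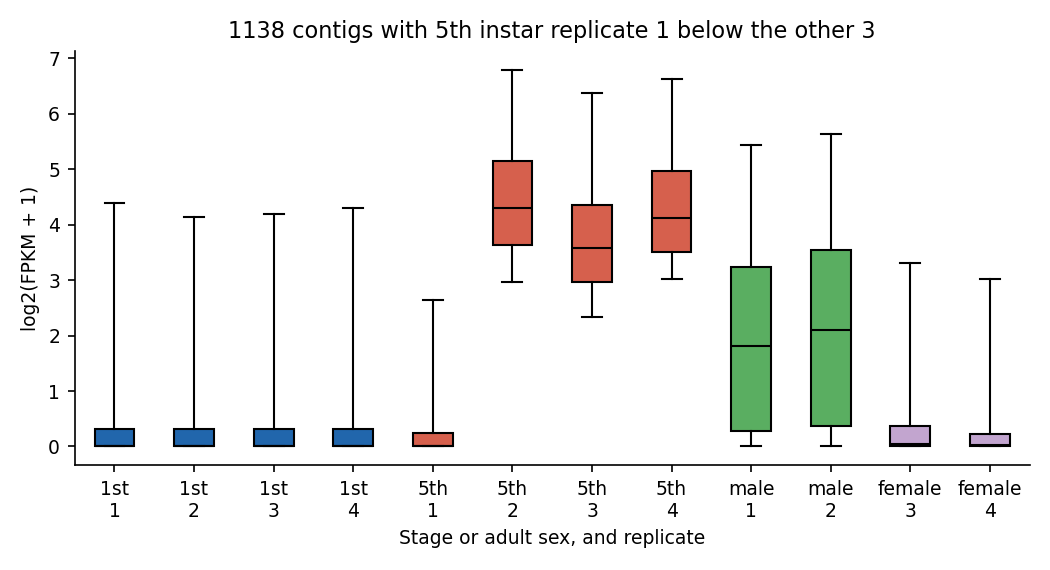
log2(FPKM + 1) of the 1138 contigs low in 5th instar replicate 1, in each of the 12 libraries; boxes span the quartiles with the median as a line, and whiskers the 5th to 95th percentile. Medians in FPKM were 0 in 5th instar replicate 1, 18.7, 10.9 and 16.5 in replicates 2 to 4, 2.52 and 3.27 in adult males, and 0.032 and 0.022 in adult females.

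The adult libraries were not used to choose these 1138 contigs, and there they were higher in males. Their median was 2.52 and 3.27 FPKM in the 2 male libraries and 0.032 and 0.022 FPKM in the 2 female libraries. Both males lay above both females for 774 of them (68.0%), against 29.8% of the 27678 contigs with a mean of at least 1 FPKM over all libraries. Both females lay above both males for 62 (5.45%), against 20.2%. A level of at least 1 FPKM in both males and below 1 FPKM in both females was found for 519 (45.6%) and for 5.71% of all members. In the 1st instar, 898 (78.9%) were below 1 FPKM in all 4 libraries, against 15.1% of all members. Of the 1138, 332 (29.2%) were below 1 FPKM in all 4 adult libraries, against 12.8%.

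The male-female difference was tested with limma over the 4 adult libraries. With an adjusted p below 0.05, 1424 of 27678 contigs (5.14%) were higher in males and 294 (1.06%) in females. Of the contigs low in replicate 1, 431 (37.9%) were higher in males and 3 in females, and their median difference was 1.23 on the log2 scale against 0.09 for all contigs. Examples were tektin-2 (c59641_g1_i1) with a difference of 4.78 ± 0.21 (SE, adjusted p = 0.0154) and the beta-tubulin c54722_g2_i1 with 7.71 ± 0.18 (SE, adjusted p = 0.0109). This fit was chosen after the data were seen. One fit of all 12 libraries in 4 groups takes part of its spread from the 5th instar libraries that define the set, and it called 119 of the 1138 (10.5%) higher in males, against 6.82% of all contigs. Without any one of male replicates 1 and 2 or female replicates 3 and 4, the fit called 0 contigs in either direction, with 601 to 758 of the 1138 at an unadjusted p under 0.05.

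Contigs that were as low in another library had lower shares with this order of the sexes. Replicate 1 was more than 10 times below the lowest other library in 1042 widely spread contigs, and 70.7% of these had both males above both females. The same rule found 140 contigs for replicate 2, 72 for replicate 3 and 94 for replicate 4, with 17.1%, 23.6% and 25.5%, all below the background of 29.8%. A level over 10 times that of the highest other library was found in 10, 152, 19 and 38 contigs for replicates 1 to 4.

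Marker lists of other cell types moved with the libraries too. Of 32 contigs named for tektin or sperm, 11, 25, 21 and 21 had at least 1 FPKM in replicates 1 to 4, with 12, 3, 7 and 3 listed at 0, and their sum was 53.3, 333, 176 and 257 FPKM. Of 306 cuticle contigs (epidermis), 147, 105, 131 and 109 had at least 1 FPKM, and of 155 trypsin, chymotrypsin and peritrophin contigs (midgut), 98, 107, 100 and 100. Their sums were 124567, 45754, 141912 and 77996 FPKM for the epidermis and 135662, 52088, 133778 and 67021 FPKM for the midgut, higher in replicates 1 and 3 in both. The number of contigs with at least 1 FPKM hardly varied for fat body and haemolymph (10 or 11 of 11), muscle (14 of 15), neurons (20 or 21 of 46) and haemocytes (5 or 6 of 8), but their sums did. The fat body sum was 115878, 77120, 146670 and 44832 FPKM, and the haemocyte sum 756, 638, 588 and 113 FPKM. Both were lowest in replicate 4. The muscle sum ran from 10244 to 17354 FPKM and the neuron sum from 185 to 239 FPKM. Of 7 silk gland contigs, 2, 3, 4 and 5 had at least 1 FPKM, and their sum of 24.0, 341, 505 and 444 FPKM was low in replicate 1, as for the sperm markers. By comparison, the fibroin heavy chain-like contig c49294_g1_i1 alone had 277, 357 and 368 FPKM in replicates 2 to 4. The share of male larvae in each pool is not given. Its part in these differences, and that of the makeup of the pools by cell type, was not tested.

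Apart from the contigs low in replicate 1, 2083 members were widely spread, 20.7% of the members outside that set. Cuticular proteins, which build the exoskeleton with chitin, were prominent there. Of 59 cuticle proteins without the Rebers-Riddiford motif in their description, 39 (66.1%) were widely spread, and 3 of the 39 were low in replicate 1. The median deviation from the mean of the 4 libraries was 1.05, −0.87, 0.73 and −0.17 on the log2 scale in replicates 1 to 4. The last of these changed sign when libraries were scaled to a common sum. Replicate 1 was the highest library for 31 of the 59 contigs and replicate 3 for 22, and replicate 2 was the lowest for 31.

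The larval cuticle protein LCP-17 (c51492_g1_i1), the highest of the list, had 23759, 2911, 21062 and 9656 FPKM in replicates 1 to 4, against 3390 to 4663 FPKM in the 1st instar. LCP-30 (c70897_g1_i1), named after its values were seen, had 2086, 19.6, 666 and 201 FPKM. The cuticular protein CPT1 (c53475_g1_i2) had 247, 5.72, 148 and 3.15 FPKM. Replicates 1 and 3 were thus above 2 and 4 in all 3, with replicate 2 or 4 at the bottom. A cuticular protein called hypothetical 11 (c56242_g2_i1) had 44.2 and 32.5 FPKM in replicates 1 and 3 and was listed at 0 in replicates 2 and 4 and in the 1st instar. Of 27 RR cuticular proteins, which bind chitin through that motif, 12 were widely spread. The RR-1 protein c37922_g1_i1 had 3137, 39.9, 1436 and 393 FPKM, and the RR-2 protein c52893_g3_i1 had 113, 1.01, 54.0 and 12.5 FPKM. In the 1st instar the first of these also varied, from 13.5 to 115 FPKM (SD 1.31).

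Chitin metabolism and the peritrophic matrix, the chitin lining of the gut, leaned the same way. Of 46 contigs, 18 (39.1%) were widely spread, and replicate 3 was the highest library for 28. Chitin synthase (c54644_g1_i1), which makes the polymer, had 11.6, 0, 9.18 and 0.746 FPKM in replicates 1 to 4 and was listed at 0 in the 1st instar. The chitin-binding protein of the peritrophic matrix c41056_g1_i1 had 2631, 835, 2801 and 1585 FPKM. Hexosaminidase (c64819_g1_i1), nearly as widely spread as chitin synthase, did not follow them, with 0.038, 15.2, 5.62 and 12.8 FPKM.

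**Figure D4:**
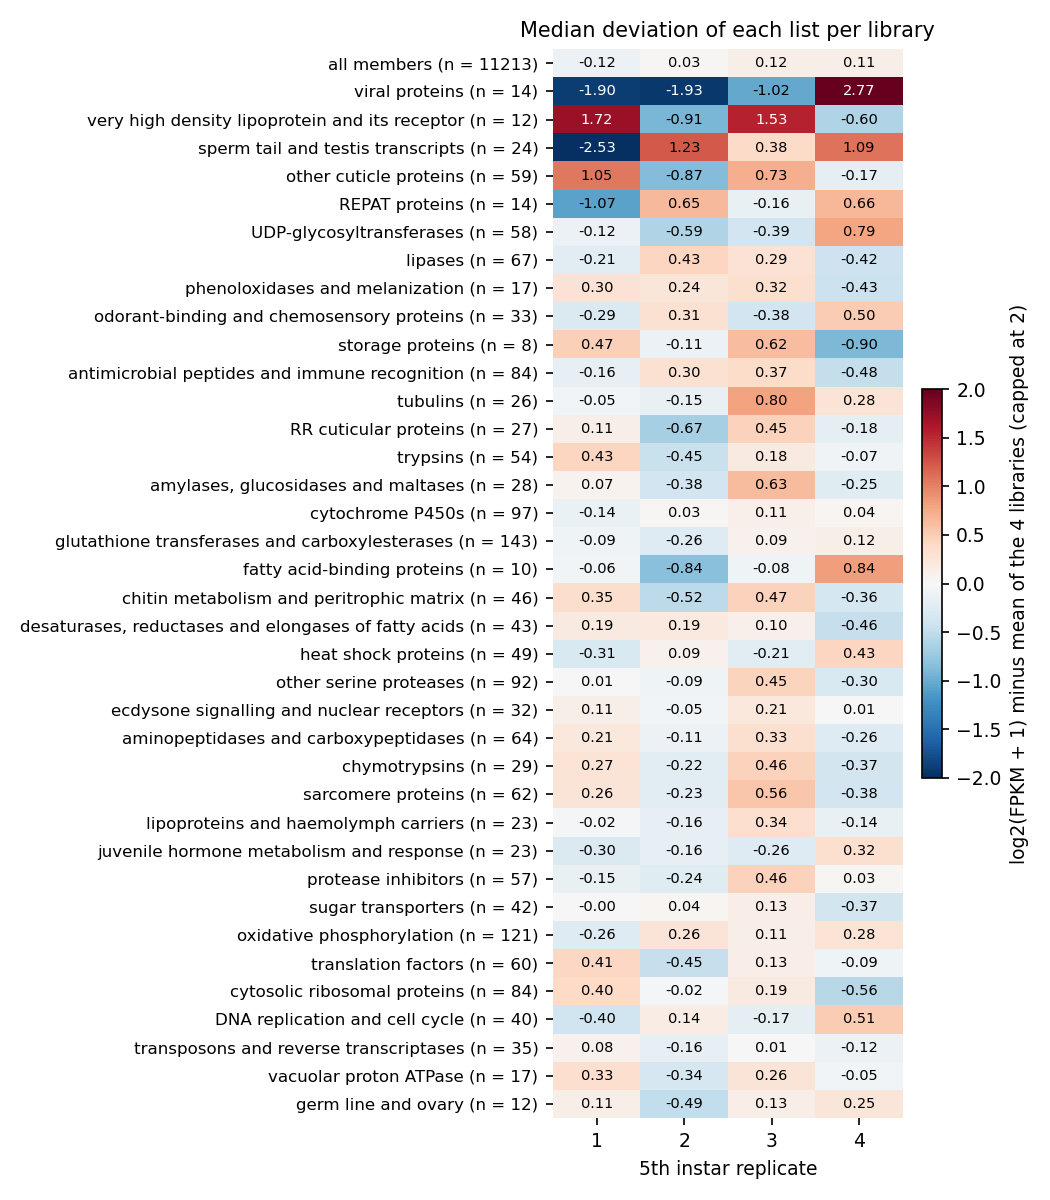
Median deviation of each function list from the mean of the 4 5th instar libraries, in log2(FPKM + 1), per library; red is above and blue below the mean, with the colour capped at 2, and n is the number of member contigs. The sperm tail and testis list stood at −2.53 in replicate 1, and the viral list at 2.77 in replicate 4.

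Digestive proteases were among the most abundant transcripts and were mostly less spread than the cuticle proteins. Of 54 trypsins, 23 (42.6%) were widely spread, with a median SD of 0.88, and replicate 2 was the lowest library for 27. Without replicate 2, 11 were. Trypsin T4 (c58715_g7_i1) had 568, 19.4, 612 and 239 FPKM in replicates 1 to 4. Of 29 chymotrypsins, 7 (24.1%) were widely spread, near the share of all members. The highest, c58594_g2_i1, had 19085, 6393, 18042 and 6370 FPKM, against 17643 to 21850 FPKM in the 1st instar. Other chymotrypsin contigs did not follow it: c45069_g1_i1 had 6.55, 62.9, 312 and 7.70 FPKM and c36691_g1_i1 had 0, 50.8, 21.1 and 3.53 FPKM.

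Among the 92 other serine proteases, 26 were widely spread. The steepest, serine protease 40 (c34631_g1_i1), was found in replicate 2 alone, at 169 FPKM, and was listed at 0 in the other 11 libraries. The highest, a diverged serine protease (c52620_g1_i1), had 7167, 3593, 5570 and 5841 FPKM. Protease inhibitors (16 of 57 widely spread) and peptidases (19 of 64) were near the share of all members. An aminopeptidase contig (c60768_g1_i2) reached 102 FPKM in replicate 2 and at most 0.349 FPKM in the others.

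Counted by contigs, lipases differed from the proteases. Of 67, 36 (53.7%) were widely spread with a median SD of 1.02, and replicate 2 was the highest library for 34 and replicate 1 the lowest for 32. Their summed FPKM did not follow that order, with 15908, 13430, 16819 and 10606 in replicates 1 to 4. The highest lipase, c55249_g1_i1, had 3268, 2035, 3329 and 1383 FPKM, so that replicates 1 and 3 lay above 2 and 4. The lipase c55997_g1_i1 had 17.7, 462, 519 and 19.7 FPKM in replicates 1 to 4, against at most 0.651 FPKM in the 1st instar. The acyl-CoA desaturase c61129_g1_i1, an enzyme that puts a double bond into fatty acids, was named after its values were seen. It had 36.9, 750, 729 and 52.5 FPKM, so that replicates 2 and 3 lay together in this contig and in c55997_g1_i1. Of the 43 desaturases, reductases and elongases, 18 (41.9%) were widely spread, with replicate 4 the lowest for 20.

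The fat body and the haemolymph gave some of the largest shifts in transcript mass. Arylphorin (c45698_g1_i1), a storage protein rich in aromatic amino acids, had 37271, 13141, 46766 and 9210 FPKM in replicates 1 to 4, while it was at most 1.32 FPKM in the 1st instar. Replicate 4 was the lowest library for 7 of the 8 storage protein contigs and replicate 3 the highest for 6. A methionine-rich storage protein (c80837_g1_i1) had 1426, 236, 96.7 and 8.2 FPKM. A moderately methionine-rich one (c48066_g1_i1) had 7.18, 0.770, 123 and 0.682 FPKM, and so did not follow it.

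Of the 12 contigs named for very high density lipoprotein, a storage protein of the haemolymph, or for its fat body receptor, 9 were widely spread, with a median SD of 2.40. This list was added after the data were seen. The lipoprotein contig c75695_g1_i1 had 6274, 420.7, 1792 and 1007 FPKM. The receptor contig c42435_g1_i1 had 108, 11.7, 43.4 and 0 FPKM, highest in replicate 1. Another contig described as the receptor, c58085_g1_i1, was highest in replicate 2, with 36.7, 7139, 432 and 471 FPKM. Contigs with the same receptor name thus stood in opposite order in replicates 1 and 2.

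Fatty acid-binding proteins, intracellular carriers of lipids, were highest in replicate 4 for 9 of 10 contigs and lowest in replicate 2 for 9. Widely spread were 4 of them, and 1 without replicate 4. Fatty acid-binding protein 2 (c53397_g1_i1) had 272, 175, 280 and 2654 FPKM in replicates 1 to 4, against 2065 to 2697 FPKM in the 1st instar. A heart-like form (c56352_g1_i1) had 73.2, 55.9, 89.6 and 602 FPKM. Replicate 4 therefore lay at the 1st instar level for the first of these and above it for the second, which had 35.3 to 67.7 FPKM in the 1st instar.

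Detoxifying enzymes were partly high in the same library. Of 58 UDP-glycosyltransferases, which attach sugars to small molecules, 30 (51.7%) were widely spread, and replicate 4 was the highest library for 34. UGT33B9 (c56571_g1_i1) had 19.4, 0.498, 6.14 and 44.1 FPKM. The highest of the family, UGT40R1 (c61441_g1_i1), had 405, 1456, 569 and 884 FPKM and so was highest in replicate 2. Glutathione S-transferase E2 (c53530_g1_i3) had 3.42, 2.39, 4.58 and 173 FPKM, against 228 to 328 FPKM in the 1st instar. Of all 143 glutathione transferases and carboxylesterases, 58 (40.6%) were widely spread, and of 97 cytochrome P450s, 44 (45.4%). CYP9A34 (c76481_g1_i1) had 0, 52.7, 17.3 and 83.3 FPKM and CYP324A1 (c58104_g1_i1) had 26.9, 2.16, 92.3 and 0.949 FPKM, so that P450s had no order in common.

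Some hormone-related contigs were widely spread too. Juvenile hormone binding protein carries the hormone in the haemolymph, and its contig c59458_g1_i1, named after its values were seen, had 94.7, 2426, 289 and 1187 FPKM in replicates 1 to 4. The more abundant c53616_g1_i1 had 2451, 11579, 6144 and 6933 FPKM and was at most 5.92 FPKM in the 1st instar. Replicate 2 was the highest and replicate 1 the lowest in both. The epoxide hydrolase c56553_g1_i1, which breaks down juvenile hormone, had 2.01, 0.045, 0.376 and 51.2 FPKM. The esterase c60112_g1_i1, another enzyme of its breakdown, was named after its values were seen and had 5.62, 11.8, 5.94 and 95.9 FPKM. In all, 8 of 23 contigs of the juvenile hormone list (34.8%) were widely spread, against 28.7% of all members. The median SD of the list was 0.665, near the 0.629 of all members. Without replicate 4, which was the highest library for 9 of the 23, 4 were widely spread.

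For ecdysone, 8 of 32 contigs of signalling and nuclear receptors (25%) were widely spread, near the share of all members. A putative ecdysone oxidase (c77513_g1_i1), an enzyme of ecdysone inactivation, had 13.8, 0, 2.74 and 54.9 FPKM and was listed at 0 in the 1st instar. Hormone receptor 39 (c47469_g1_i1) had 32.7, 4.39, 17.6 and 0.970 FPKM. The ecdysteroid-regulated protein c54531_g1_i1 had 8023, 1368, 2560 and 1643 FPKM, against 2832 to 4214 FPKM in the 1st instar. Replicate 1 was the highest in these last examples, and replicate 2 or 4 the lowest.

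Immune genes leaned toward replicates 2 and 3. Of 84 antimicrobial peptides and recognition proteins, 38 (45.2%) were widely spread. Replicate 2 was the highest library for 33 of the 84 and replicate 3 for 35, and replicate 4 was the lowest for 35. Moricin (c47282_g1_i1), an antimicrobial peptide, had 8.61, 765, 55.9 and 35.0 FPKM in replicates 1 to 4. Peptidoglycan recognition protein A (c64341_g1_i2), which binds bacterial cell wall, had 0, 110, 58.8 and 18.9 FPKM. Cobatoxin (c59420_g2_i1), the highest of the list, was not widely spread, with 886, 1275, 1338 and 2192 FPKM. Of 17 phenoloxidase and melanization contigs, 8 were widely spread, 5 without replicate 4, and prophenoloxidase-1 (c62818_g1_i1) had 301, 150, 237 and 33.1 FPKM.

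REPAT proteins, known from the larval midgut of Spodoptera, were added as a list after the data were seen. Of 14 contigs, 9 (64.3%) were widely spread, and replicate 1 was the lowest for 11. The 3 isoforms of REPAT40 (unigene of c55296_g1_i3) summed to 153, 6701, 383 and 4011 FPKM, so that replicates 2 and 4 lay above 1 and 3. REPAT38 (c39719_g1_i1), the highest of the list, had 3534, 6044, 5539 and 6132 FPKM. Among odorant-binding and chemosensory proteins, small carriers of hydrophobic ligands, 16 of 33 were widely spread. The odorant binding protein c56335_g1_i1 had 84.6, 11396, 395 and 853 FPKM, against 300 to 437 FPKM in the 1st instar. A chemosensory protein (c53066_g1_i1) had 1.59, 229, 2.73 and 20.6 FPKM, also highest in replicate 2, while the highest of the list (c58603_g1_i1) had 2799, 2523, 4583 and 3895 FPKM.

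**Figure D5:**
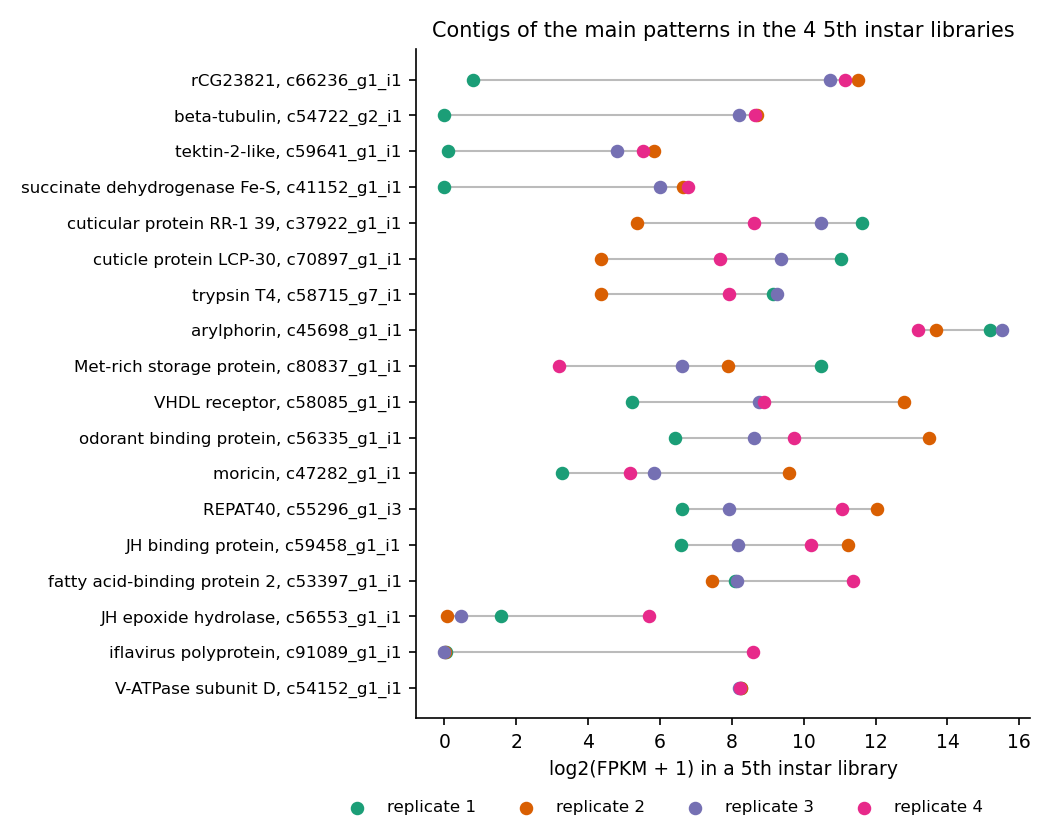
log2(FPKM + 1) of 18 contigs in the 4 5th instar libraries; each dot is a library and each grey line spans the range. The rCG23821, tubulin, tektin-2 and succinate dehydrogenase contigs were near 0 in replicate 1 alone, and the V-ATPase subunit D contig had 296 to 307 FPKM in all 4 libraries.

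A few enzymes of sugar metabolism stood among the widest contigs. Glucose dehydrogenase (c90738_g1_i1) had 918, 5.17, 19.8 and 2.16 FPKM in replicates 1 to 4 (SD 3.66), against 120 to 261 FPKM in the 1st instar. Phosphoglucomutase (c62476_g1_i1), which interconverts glucose phosphates, had 87.9, 0.091, 71.2 and 0.405 FPKM (SD 3.48). The first was high in replicate 1 alone and the second in replicates 1 and 3. Of 28 amylases, glucosidases and maltases, 11 were widely spread, and of 42 sugar transporters, 6. Without replicate 4 these counts were 3 and 3.

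The share of widely spread contigs was smaller for ribosomal proteins. Of 84 cytosolic ribosomal proteins, 11 (13.1%) were widely spread, with a median SD of 0.52. The count was 3 with libraries scaled to a common sum, 2 with common quantiles, 1 without replicate 1 and 17 without replicate 3. Replicate 1 was the highest library for 62 and replicate 4 the lowest for 67, with median deviations of 0.40, −0.02, 0.19 and −0.56. Those of replicates 2 and 3 changed sign with libraries scaled to a common sum or to common quantiles. Ribosomal protein L4 (c58946_g1_i1) had 2334, 384, 1443 and 421.4 FPKM, and S3 (c49346_g1_i1) had 2036, 345, 1179 and 399 FPKM, while S23 (c36657_g1_i1) had 5381, 5362, 6096 and 3287 FPKM. Both of the first were steady in the 1st instar, with SDs of 0.05 and 0.11.

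Elongation factor 1-a (c421_g1_i1), which brings aminoacyl-tRNA to the ribosome, had 8330, 1848, 5252 and 1651 FPKM, and 10 of 60 translation factors were widely spread, 5 without replicate 1 or 4 and 6 with common quantiles. Of 17 contigs of the vacuolar proton ATPase, the proton pump of the midgut, 1 was widely spread, 0 without replicate 2 and 3 without replicate 4. This was catalytic subunit A (c61563_g1_i1), with 632, 99.4, 492 and 213 FPKM. Actin c50263_g1_i2, the highest of 62 sarcomere contigs of which 22 were widely spread, had 9232, 1847, 8910 and 2430 FPKM. Widely spread were also 5 of 40 contigs of DNA replication, 2 without replicate 1, and 9 of 35 transposon contigs, 5 without replicate 2, the latter near the share of all members.

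The steadiest described contigs were taken among those above 100 FPKM. Subunit D of the vacuolar proton ATPase (c54152_g1_i1) had 304, 307, 296 and 297 FPKM and the smallest SD of all members (0.03). Glycerol-3-phosphate dehydrogenase (c61362_g1_i2) had 124, 119, 130 and 123 FPKM, and the muscle LIM protein c57986_g1_i1 had 111, 109, 119 and 113 FPKM. A sniffer contig (c4195_g1_i1) had 149, 162, 152 and 160 FPKM. These contigs were chosen for a small SD over the same 4 libraries, so nothing is read from their agreement.

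Viral contigs were spread most of all, with a median SD of 3.49 and 11 of 14 members widely spread, 4 without replicate 4. Matches to the polyprotein of an iflavirus, an RNA virus of insects, were found in 5th instar replicate 4. The contig c91089_g1_i1 had 0.038, 0.023, 0 and 381 FPKM in replicates 1 to 4, was listed at 0 in the 1st instar, and had 0 to 1.5 FPKM in adults. The contigs c83552_g1_i1, c91170_g1_i1, c79484_g1_i1, c74730_g1_i1 and c69577_g1_i1 had 333, 225, 215, 207 and 183 FPKM in replicate 4 and were listed at 0 in the other 3 libraries. A densovirus, a DNA virus, was found across stages. Its VP contig (c75745_g1_i1), for the capsid, had 0.521, 0, 117 and 45.0 FPKM in the 5th instar. It had 0, 0, 31.1 and 9.19 FPKM in the 1st instar and 0.067, 2090, 0.162 and 714 FPKM in male replicates 1 and 2 and female replicates 3 and 4. Its NS1 contig (c24557_g1_i1), named after its values were seen, had 0.318, 0, 22.5 and 57.3 FPKM in the 5th instar. An ascovirus-like contig (c76982_g1_i1) had 21.5, 0, 367 and 36.9 FPKM. Virus-like transcripts were thus unevenly held by the libraries, and their part in the spread of other contigs was not tested.

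Contigs without a description were spread more widely than those with one. Their median SD was 1.00, and 50.1% of the 2313 were widely spread, against 0.577 and 23.2% of the 8900 described members. They made up 51 of the 100 contigs with the largest SD. The isoforms of a unigene share reads, so a contig's value can depend on how reads were divided. Of 1626 widely spread contigs in unigenes with more than 1 contig, 500 (30.8%) had an SD below 1 in the sum of the unigene. Over sums, 2516 of 9883 unigenes (25.5%) were widely spread. Scaling also set a common shift: the median deviation of all members was −0.12, 0.03, 0.12 and 0.11 in replicates 1 to 4 as deposited, and −0.22, 0.16, −0.10 and 0.30 with each library scaled to a common sum.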

How the data were processed

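RNA was measured in 12 whole-body pools, 4 of them of 5th instar larvae. The authors assembled the reads with Trinity 2.0.6, mapped them with Bowtie 0.12.7 (2 mismatches allowed in the first 28 bases) and estimated abundances with RSEM 1.1.17; the values they deposited are FPKM, on a linear scale, for each contig in each pool. The paper reports about 4 Gb of sequence per sample. The number of mapped reads in each library is unknown without counts, and counting intervals are left out. Replicate numbers are those of the sample titles, and the deposited columns number the adult females otherwise.

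Values were taken as log2(FPKM + 1). Fits kept contigs with a mean of at least 1 FPKM, members a mean of at least 5 FPKM. Tests were limma 3.58.1 with trend in R 4.3.3, Benjamini-Hochberg adjusted over all contigs tested, and exact permutation tests (Python 3.11.15). On simulated data the spread test was liberal before adjustment and called few of the contigs that did differ; the sex test called few wrongly. Function lists were found by words in the nr description. Contigs named are the 20 described ones with the largest SD, for each list the 2 with the largest SD and the highest, the 5 steadiest, and others said to be chosen after their values were seen. For brevity some contigs given by this rule, mostly sister contigs, are not printed. Members and lists were chosen with earlier results of these data known, and 3 lists were added later. Alternatives were the pseudocount, scaling, filter, unigene sums, measure of spread and libraries left out. Contig sequences were not used here.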

Additional observations from a re-analysis of the deposited data

Results flagged for a closer look

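In 21 of 89 groups of 4 libraries looked at, 1 library stood apart by a gap of more than Dixon's critical share of the group's range for 4 samples, in log2(FPKM + 1), and chance gives about 1 in 20, or 4.45. Most of these contigs were chosen for a large SD over the same 4 libraries, so nothing is read from 21 against 4.45. Replicate 1 of the 5th instar was the lowest for rCG23821 (c66236_g1_i1, 0.928), beta-tubulins c57367_g2_i1 (0.943) and c54722_g2_i1 (0.943), alpha-tubulin c56081_g2_i1 (0.954) and cytochrome c oxidase subunit 7A1 (c7946_g1_i1, 0.837). It was also the lowest for succinate dehydrogenase (c41152_g1_i1, 0.883), the testis-specific kinase (c37510_g1_i1, 0.880), heat shock protein 70-3 (c60751_g1_i1, 0.877) and the fibroin-like contig (c49294_g1_i1, 0.951). Pyruvate carboxylase (c42940_g1_i1, 0.916), glutamate dehydrogenase (c60693_g1_i1, 0.921) and a cytochrome c oxidase subunit 7C contig (c7586_g1_i1, 0.887) complete these 12.

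Replicate 2 was alone at the top for serine protease 40 (c34631_g1_i1, 1.00) and the aminopeptidase contig c60768_g1_i2 (0.935). Replicate 4 was so for glutathione S-transferase E2 (c53530_g1_i3, 0.873) and the iflavirus polyprotein contig c91089_g1_i1 (0.994), and for the 5 other iflavirus contigs, c83552_g1_i1, c91170_g1_i1, c79484_g1_i1, c74730_g1_i1 and c69577_g1_i1 (1.00 each). Over all members, 982 (8.76%) passed this critical share in the 5th instar, and 773 of the 10336 that varied (7.48%) in the 1st.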

How the results depend on the processing

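The larger distance among 5th instar libraries kept its direction under every pseudocount, scaling, filter, unigene sum and left-out library tried, at 0.272 (no filter) to 0.928 (pseudocount of 0.1). The exact permutation p was 0.0286 each time. This is the smallest that 4 against 4 or 3 against 4 libraries can give, so its constancy adds nothing to the direction. With a replicate block the difference was again 0.615, with an exact sign-flip p of 0.125, the smallest that 4 pairs can give. Same-numbered libraries deviated together little (r of deviations −0.09, −0.06, 0.07 and 0.06), and other-numbered ones had r from −0.12 to 0.11. Such values, from different larvae, cannot tell whether the numbers pair the libraries. The spread test called 5333 contigs wider and 588 narrower, and with the replicate block 4217 and 650. It called 1460 and 47 with a mean of at least 10 FPKM (7229 contigs tested), 24871 and 15732 with no filter, 220 and 44 with deviations from the stage median, 9507 wider with all 12 libraries, and 2913 and 212 with the trend on the mean level. That last trend was the first one run, and both counts were seen before the trend on the mean deviation was kept. Without a 5th instar library it called 7546 to 9619 wider and 1036 to 1338 narrower, and without a 1st instar library 1 and 0 each time. The cause was not tested.

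Of the contigs low in replicate 1, 431 were higher in adult males, 119 with all 12 libraries in 4 groups, 142 with no filter and 0 without any one adult library. Over all contigs, 1424 against 294 were higher in males and in females as deposited, 1608 against 737 with libraries scaled to a common sum and 1353 against 581 with common quantiles. The median male-female difference was 0.09, −0.08 and −0.08.

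Widely spread contigs numbered 2031 with a mean of at least 10 FPKM, 6876 with at least 1 FPKM and 1630 by the median absolute deviation, whose median was 0.477, and the median SD without 1 library was 0.541 to 0.656. Contigs low in replicate 1 numbered 480 with an SD of at least 2, and 1004 to 1229 under the scalings and pseudocounts. These pattern and sex alternatives were chosen after the data were seen. Of the SDs of named contigs, 500 stayed within the replicate spread and 88 moved under other settings, and 428 and 160 with a 5th instar library left out. The numbers of widely spread contigs per list stayed near their value in 145 cases and moved in 3 under other settings, and in 129 and 19 with a 5th instar library left out. Without read counts the part of depth cannot be given.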
